A study of Mus musculus with 45 samples.

Results

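The 54 genes described here encode the machinery that carries secreted proteins into the endoplasmic reticulum (ER) and out of it again in vesicles. They were chosen by gene symbol from a list written with earlier results of these data known, and all 54 were found among the 28196 genes of both deposited tables. Mouse splenic B2 cells of the C57BL/6 strain were sequenced as bulk RNA before and during culture towards plasma cells, in 45 libraries that form 15 groups of 3. Wild type cells were taken at day 0, at days 4, 7 and 10 of a TLR culture (irradiated L cells carrying CD40L, LPS, IL-4 and IL-5) and at the same days of a BCR culture (the same feeder cells and cytokines with F(ab')2 antibody to IgM and IgG in place of LPS). In both cultures the cells left the feeder layer at day 2, and from day 4 they received IL-6, APRIL, amino acids and lipids. Wild type cells were also taken at days 4 and 7 of an LPS culture, whose composition is not given in the sources used here. Cells of Prdm1 Δex1A mice, called dEx1A below, were taken at days 4 and 7 of all 3 cultures. These mice lack exon 1A of Prdm1, which encodes Blimp-1, a repressor that plasma cells need, and how complete the loss of Blimp-1 is in them was not measured here. By the sample labels, mice of the wild type LPS groups and of all dEx1A groups were 9-week-old females and the other mice 7-week-old males. Whether the 3 replicates in each group are different animals is not said in the labels, so the p-values here measure only the spread between samples, which may be technical.

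A protein bound for secretion is recognised on the ribosome by the signal recognition particle (SRP), docked at the SRP receptor in the ER membrane, threaded through the Sec61 channel with help from the TRAP complex (the Ssr genes), and trimmed by signal peptidase. Folded cargo is gathered by receptors into vesicles coated by COPII, and escaped ER residents are returned in vesicles coated by COPI, with KDEL receptors holding soluble ones. Plasma cells are known for an expanded ER that serves antibody secretion, and the factor XBP1 is known to drive many genes of this pathway.

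RefSeq promoter windows of GRCm38.p6, from 250 bases before to 50 after each gene's start, were at hand for 43 of the 54 genes. On either strand, the UPRE motif (TGACGTGG), known as a binding sequence of XBP1, was present in 5 of these 43 (11.6%), against 0.676% of all 32851 windows. The longer ERSE motif (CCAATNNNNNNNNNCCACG) was in 0 of 43 and 0.119% of all windows, and ERSE-II (ATTGGNCCACG) in 0 of 43 and 0.037% of all windows. The figures for the 43 count genes and those for all windows count windows, so they are not like for like. The stretches that hold UPRE are shown because Sec24d and Kdelr3 were among the genes that changed most. The one at Kdelr3 is chr15:79516338-79516407, plus strand. Shorter stretches of 30 bases are given where the sequence reaches an annotated transcript: Sec24d at chr3:123267459-123267488, plus strand; Copb2 at chr9:98563713-98563742, plus strand; Copb1 at chr7:114254690-114254719, minus strand; Sec23a at chr12:59011993-59012022, minus strand. Each is written 5′ to 3′ on the strand of its gene, with the motif, or its reverse complement CCACGTCA, in capitals. A match describes these letters only and does not show that a factor binds.
Kdelr3: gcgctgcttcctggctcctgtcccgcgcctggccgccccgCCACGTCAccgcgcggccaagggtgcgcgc
Sec24d: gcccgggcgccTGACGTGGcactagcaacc
Copb2: tcccggaagttCCACGTCAgtgggttggcc
Copb1: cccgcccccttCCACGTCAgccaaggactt
Sec23a: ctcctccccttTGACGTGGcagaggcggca

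Values are the authors' variance-stabilised log2 expression, on which a count of 0 reads 3.04, and differences are in log2 units with their standard error (SE) from limma. In units of 1e6 reads, libraries recovered from the values held 15.06 to 35.49. The 6 wild type LPS libraries and the 9 dEx1A libraries of day 7 held 15.06 to 19.5, and the other 30 held more than 20. Their GC offsets (the log2 excess of GC-rich over GC-poor transcripts) were 0.77 to 1.75, against −1.97 to 0.61 in the other 30. Comparisons that cross these 15 and 30 libraries are named as such below, because depth and GC offset cannot be told apart from group in them. Prdm1 read 6.01 to 6.95 at day 0 and 13.04 to 13.43 at day 7 of the wild type TLR culture. In the dEx1A libraries it read 7.27 to 11.9 over the whole gene, which does not measure exon 1A. Summed normalised reads of 13 fibroblast genes, markers of the feeder L cells, were 46 to 126 at day 0, 1992 to 5375 in the wild type TLR and BCR groups of day 4, and 7 to 43 in all LPS groups, where up to 7 of the 13 genes, Col1a1 among them in both wild type groups, were at 0 in all 3 libraries.

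In wild type cells, 10 days of TLR culture left 53 of the 54 genes higher than at day 0 and 1, the COPII gene Sec24b, lower, against 22.9% of all genes tested that were higher and 23.1% that were lower. The median over the 54 was 1.80, and over all genes −0.02. In the same comparison 8 of 13 macrophage and myeloid genes and 5 of 11 fibroblast genes tested were also higher and 0 lower. Summed macrophage reads were 4411 to 5517 at day 0 and 10999, 126285 and 21470 at day 10, and the part of either list was not tested. Most of the change came in the steps before day 7. From day 0 to day 4, 43 rose, 1 fell and 10 did not pass (24.9% and 23.5% of all genes were higher and lower, and the median of the 54 was 0.90, or 0.59 after the GC and length correction, where that of all genes was −0.15). From day 4 to day 7, 45 rose, 1 fell and 8 did not pass (17.7% higher and 18.6% lower, median 1.00). From day 7 to day 10, 1 rose, 3 fell and 50 did not pass (3.51% higher and 4.69% lower). These 4 calls were 1 without replicate 1 or 3 of day 7 or replicate 1 or 2 of day 10, 2 without replicate 2 of day 7 and 1 with only the compared groups in the fit. Over this step 9 of 13 macrophage genes were higher and 4 of 6 B cell markers lower, and their part was not tested. Summed over the 54 genes, the share of a library's reads was 0.51% ± 0.01 (SD, n = 3) at day 0, 1.03% ± 0.05 at day 4, 1.27% ± 0.09 at day 7 and 0.73% ± 0.08 at day 10. The day 10 share lay below the day 7 share while normalised reads for the 54 genes were 328079 and 380021. In bulk RNA, more cells of a type and more RNA per cell cannot be told apart. At day 4 of the TLR culture all 11 fibroblast genes tested were also higher than at day 0, and their part in these changes was not tested. At day 7 of that culture the summed reads of the fibroblast list were 102 to 290.

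**Figure D1:**
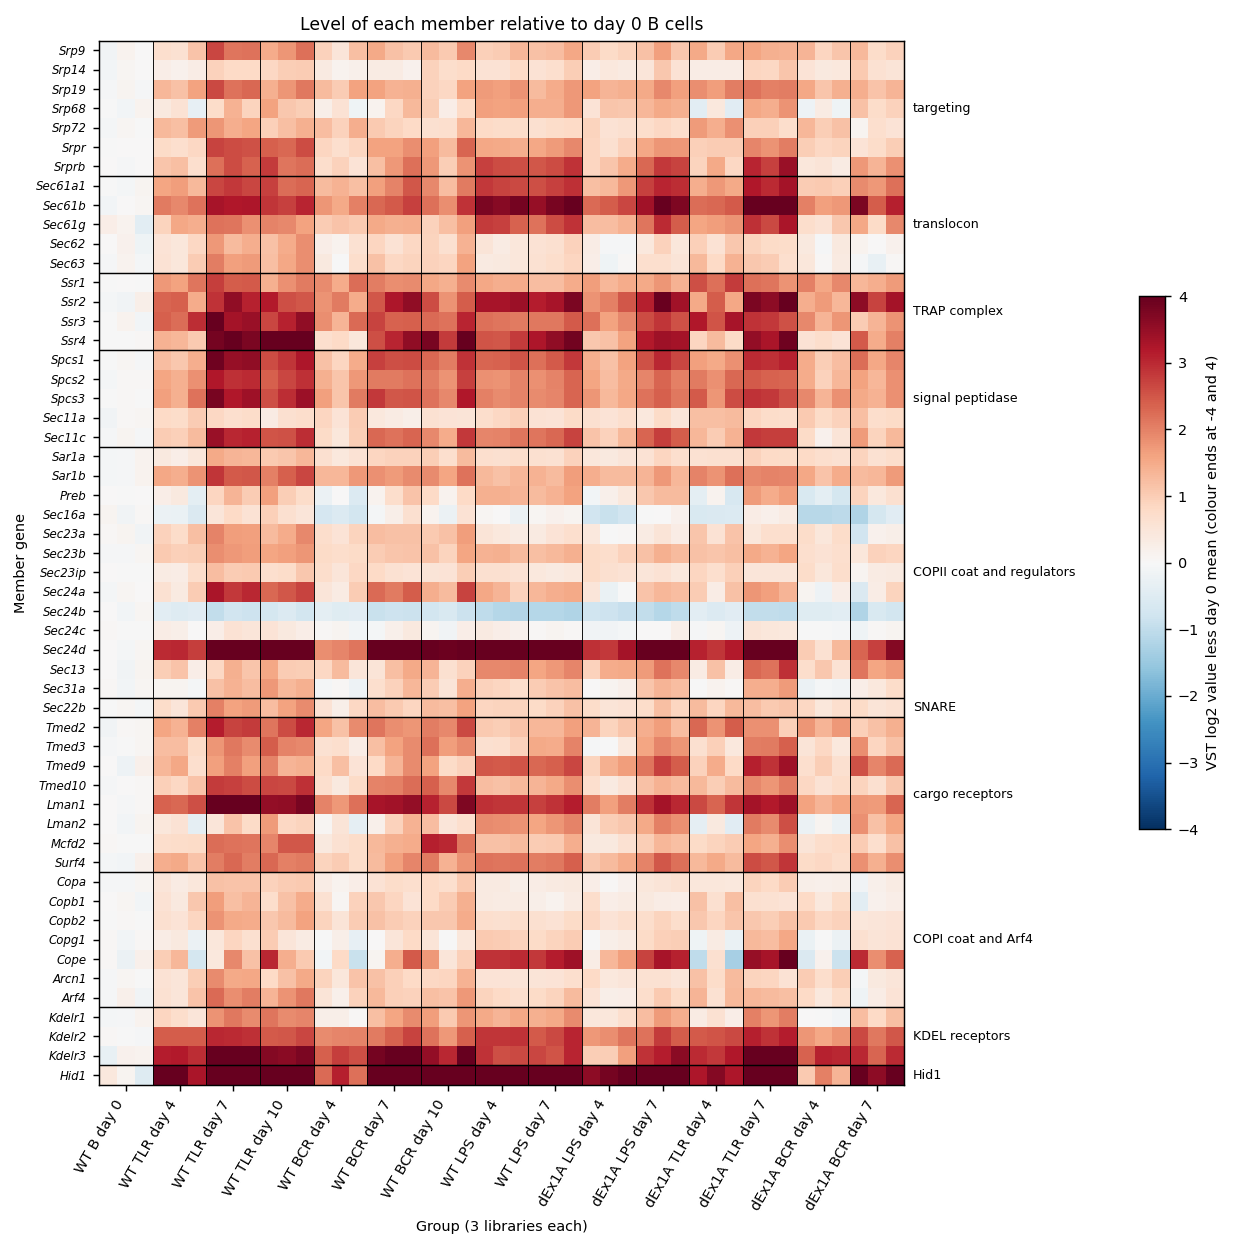
Each row is a gene, ordered by role, and each column a library, ordered by group; colour gives the log2 value less the day 0 mean of that gene, ending at −4 and 4. Red fills most rows from day 7 onward, and Sec24b is blue in every cultured group. Hid1, Sec24d, Kdelr3, Ssr4, Sec61b, Lman1 and Cope are among the rows that reach the end of the scale in at least 1 library.

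Among the genes of targeting, all 7 had risen by day 10 of the TLR culture, with a median of 1.77. Srpr, the subunit of the SRP receptor that binds the particle, read 10.91, 10.94 and 10.97 at day 0, 11.72, 11.61 and 11.76 at day 4, 13.63, 13.54 and 13.48 at day 7, and 13.33, 13.25 and 13.54 at day 10. The groups of days 0, 4 and 7 did not overlap, and those of days 7 and 10 did. The RNA-binding SRP subunit Srp72 stood apart in its timing, from 11.47 to 11.63 at day 0 to 12.75 to 13.24 at day 4, and its step after day 4 was 0.20 (adjusted p = 0.462). Srp14, which with Srp9 forms the part of the particle that slows translation, read 9.78 to 9.99 at day 0 and 10.72 to 10.92 at day 10.

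All 5 translocon genes rose in both early steps of the TLR culture, by medians of 1.3 and 1.12. Sec61a1, the channel itself, read 10.76 to 10.95 at day 0, 12.16 to 12.53 at day 4 and 13.53 to 13.69 at day 7. Its small partner Sec61b read 8.08 to 8.26, then 10.10 to 10.37, then 11.40 to 11.48. In neither gene did any of these groups overlap. Sec62 and Sec63, which assist the channel in taking up some proteins, read 10.33 to 10.67 and 11.06 to 11.26 at day 0, and 11.75 to 12.23 and 12.78 to 13.18 at day 7.

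The TRAP complex, which helps the channel admit certain signal sequences, rose in all 4 genes in both early TLR steps, but its members kept different times. Ssr3 rose early, from 11.30, 11.45 and 11.22 at day 0 to 13.72, 13.55 and 14.27 at day 4, a difference of 2.52 ± 0.28 (adjusted p = 7.46e-07). Ssr4 rose mostly afterwards. It read 9.71, 9.71 and 9.76 at day 0, 11.12, 11.04 and 10.76 at day 4, 13.54, 13.81 and 13.48 at day 7, and 14.93, 14.34 and 14.35 at day 10, and no neighbouring groups overlapped. The step of Ssr4 from day 4 to day 7 was 2.64 ± 0.28 (adjusted p = 8.15e-07). Per length, Ssr4 was at 15687 ± 1968 normalised reads per kb at day 7 and 30328 ± 7510 at day 10 (SD, n = 3), where its mean was the highest of the 54 genes. Ssr1 read 13.89, 13.54 and 13.58 at day 7 and 12.55, 12.95 and 13.22 at day 10, a fall of 0.76 ± 0.20 (adjusted p = 0.0265) while Ssr4 rose by 0.93 ± 0.28 (adjusted p = 0.048). The count of rises in that step was 0 with no filter, only the compared groups, the replicate block, median-centred libraries, quantile normalisation or voom. It was 1 with the GC and length correction and 0 with that correction and the replicate block. Falls numbered 1 to 6 over these fits.

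Signal peptidase genes all rose by day 4 of the TLR culture (5 of 5, median 1.25), and 4 of 5 rose again by day 7 (median 1.72). Spcs1, a small subunit, read 9.23, 9.32 and 9.22 at day 0, 10.48, 10.33 and 10.70 at day 4, and 13.15, 12.74 and 12.80 at day 7, a late step of 2.39 ± 0.21 (adjusted p = 6.85e-08). By day 10 Spcs1 had fallen by 0.73 ± 0.21 to 11.87, 12.12 and 12.50 (adjusted p = 0.0376). The catalytic subunits parted. Sec11c went from 11.52 to 11.68 at day 0 to 14.61 to 15.04 at day 7, while Sec11a read 9.59 to 9.80 at day 0, 10.45 to 10.73 at day 4 and 10.40 to 10.54 at day 7, with −0.10 for the late step (adjusted p = 0.603). Per length, Sec11c gave 85.2% ± 1.11 of the reads of the pair at day 0 and 96.9% ± 0.34 at day 7 of the TLR culture (SD, n = 3).

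Of the 13 COPII genes, 12 had risen and 1 had fallen by day 10 of the TLR culture, with a median of 1.18. The 4 Sec24 paralogs, the coat subunits that bind cargo and differ in the cargo they prefer, diverged most. Sec24d (chr3:123267455-123365641, plus strand, GRCm38) read 6.92, 6.83 and 6.97 at day 0, 9.88, 9.91 and 9.66 at day 4, 12.08, 12.15 and 12.01 at day 7, and 12.23, 11.99 and 12.00 at day 10. The day 0, day 4 and day 7 groups lay apart, and day 10 overlapped day 7. Its early step was 2.91 ± 0.20 (adjusted p = 1.18e-09) and its late step 2.26 ± 0.20 (adjusted p = 6.81e-08).

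Sec24a moved in the late TLR step, from 10.36, 10.11 and 10.75 at day 4 to 13.01, 12.58 and 12.75 at day 7 (2.37 ± 0.29, adjusted p = 3.62e-06), after 0.66 in the early step (adjusted p = 0.0643). Sec24b (chr3:129982759-130061553, minus strand) went the other way, from 11.02, 10.90 and 11.09 at day 0 to 10.59, 10.50 and 10.54 at day 4 and 10.03, 10.24 and 10.19 at day 7. None of these groups overlapped, and the falls were 0.46 ± 0.11 (adjusted p = 0.00137) and 0.39 ± 0.11 (adjusted p = 0.00683). Sec24c stayed closer to its start, at 11.84 to 11.92 at day 0 and 12.14 to 12.45 at day 7.

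Per length, Sec24c gave 60.2% ± 1.47 of the reads of the 4 paralogs at day 0, Sec24b 28.6% ± 1.44, Sec24a 9.2% ± 0.7 and Sec24d 1.9% ± 0.08 (SD, n = 3). At day 7 of the TLR culture Sec24c, Sec24d and Sec24a shared the family almost evenly, at 32.2% ± 3.52, 31.2% ± 1.17 and 30.3% ± 4.57, and Sec24b was at 6.2% ± 0.49. The share of Sec24d was above its day 0 value in all 14 cultured groups, from 4.4% ± 0.97 in dEx1A BCR cells of day 4 to 38.0% ± 3.67 in dEx1A TLR cells of day 7. The paralogs of Sec23, which pairs with Sec24 in the inner coat, did not part in this way in the 30 deeper libraries, where the mean share of Sec23a ran from 15.7% to 24.0% by group. In the 15 shallower ones it ran from 13.1% to 14.4%. Of the small GTPases that start the coat, Sar1b gave 28.3% ± 0.25 of the pair at day 0 and 48.6% ± 2.28 at day 7 of the TLR culture. The Sec24 shares over the 14 cultured groups cross the deeper and shallower libraries, whose GC offsets differ. Transcripts of Sec24a, Sec24b, Sec24c and Sec24d are 43.7%, 50.1%, 52.1% and 50.6% GC, and the part of GC content in these shares was not tested.

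**Figure D2:**
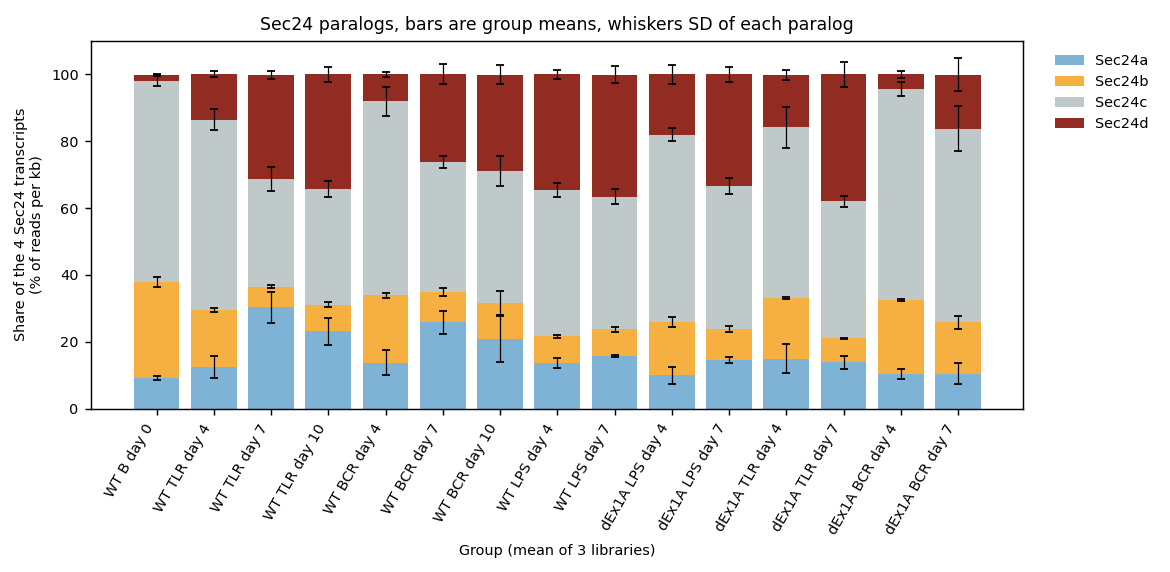
Stacked bars give the mean share of each Sec24 paralog in the reads per kb of the 4, by group of 3 libraries, and whiskers the SD of each paralog. The dark red part, Sec24d, grows from 1.9% at day 0 to 31.2% at day 7 of the wild type TLR culture and 36.5% at day 7 of the wild type LPS culture. The wild type LPS groups and the dEx1A groups of day 7 are the shallower libraries, with higher GC offsets.

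Other COPII genes changed later or less. Sec16a, which organises exit sites on the ER, read 11.49 to 11.76 at day 0, 11.06 to 11.42 at day 4 (−0.36, adjusted p = 0.157) and 12.13 to 12.43 at day 7 of the TLR culture. Sec31a of the outer coat read 10.89 to 11.07, then 10.91 to 11.10, then 12.18 to 12.40, so that its rise lay in the late step. Preb, which loads Sar1 with GTP, followed the same course, with 10.55 to 10.57, 10.17 to 10.94 and 11.42 to 11.92. Sec22b, a SNARE of fusing vesicles, rose in both steps, from 9.53 to 9.69 at day 0 to 10.09 to 10.65 at day 4 and 11.22 to 11.61 at day 7.

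All 8 cargo receptor genes had risen by day 10 of the TLR culture, with a median of 2.22. Lman1, the lectin ERGIC-53 that carries glycoproteins, read 9.39, 9.32 and 9.42 at day 0, 11.74, 11.67 and 11.97 at day 4, 13.67, 13.54 and 13.43 at day 7 and 12.89, 12.92 and 13.17 at day 10. Its rise from day 0 to day 10 was 3.62 ± 0.20 (adjusted p = 7.97e-11), and none of the 4 groups overlapped. Mcfd2, the partner that Lman1 needs for some cargo, rose less, from 8.43 to 8.50 at day 0 to 10.59 to 10.69 at day 7. Per length, Lman1 gave 45.8% ± 1.04 of the reads of the pair at day 0 and 76.7% ± 0.86 at day 7. Tmed2 and Tmed10, members of the p24 family that sort cargo such as GPI-anchored proteins, went from 11.33 to 11.55 and 11.27 to 11.37 at day 0 to 14.16 to 14.60 and 13.94 to 14.11 at day 7. Lman2, another lectin, read 10.63 to 10.85 at day 0 and 10.38 to 11.33 at day 4, and its call came with the whole course (11.56 to 12.44 at day 10).

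The COPI coat moved less than the ER entry genes, with medians of 0.68 and 0.72 in the 2 early TLR steps. Of its 6 coat genes and the GTPase gene Arf4, 5 of 7 rose in each step, and all 7 had risen by day 10. Arf4 read 10.76 to 11.12 at day 0, 11.40 to 12.06 at day 4 and 12.78 to 13.19 at day 7. Copa, the largest coat subunit, read 12.67 to 12.77, then 13.04 to 13.20, then 13.83 to 13.88. Cope, which encodes the epsilon subunit, scattered widely between replicates. It read 9.94, 10.29 and 8.25 at day 4 and 9.37, 10.87 and 10.13 at day 7, which overlap (difference 0.63, adjusted p = 0.484). Its transcript is 56.5% GC, near the top of the 40.2% to 57.7% of the set, and within both groups its lowest value was in the library with the lowest GC offset.

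KDEL receptors, which retrieve ER chaperones, rose in 3 of 3 genes in both early TLR steps, and their balance changed. Kdelr1 gave 76.4% ± 2.12 and Kdelr2 23.6% ± 2.15 of the family's reads per kb at day 0. At day 4 the shares were 47.1% ± 3.14 and 50.1% ± 3.20. Kdelr3 (chr15:79516411-79527739, plus strand) was near the floor at day 0, with 0, 1 and 1 recovered reads, and rose to 132, 143 and 113 reads at day 4. Its values were 3.04, 3.5 and 3.48 at day 0, 6.49, 6.51 and 6.30 at day 4, 8.25, 8.42 and 8.56 at day 7, and 7.01, 6.95 and 7.10 at day 10. All 4 groups lay apart, and its fall after day 7, by 1.39 ± 0.23 (adjusted p = 0.000996), was the largest change of any of the 54 genes in that step.

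Hid1 (chr11:115347707-115367756, minus strand) encodes a protein of the Golgi known for its part in the making of secretory granules, and it had the widest range of the set. It had 5, 2 and 0 recovered reads at day 0 (values 3.99, 3.68 and 3.04) and 323, 419 and 174 at day 4 (7.63, 7.89 and 6.82). At day 7 it read 10.44, 11.28 and 10.76 and at day 10 11.76, 10.52 and 10.22, which overlap. Its differences, 3.88 ± 0.51 in the early step (adjusted p = 5.96e-06), 3.38 ± 0.51 in the late step (adjusted p = 4.99e-05) and 7.26 ± 0.51 over the whole course (adjusted p = 2.01e-09), are understated where they start from the floor.

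**Figure D3:**
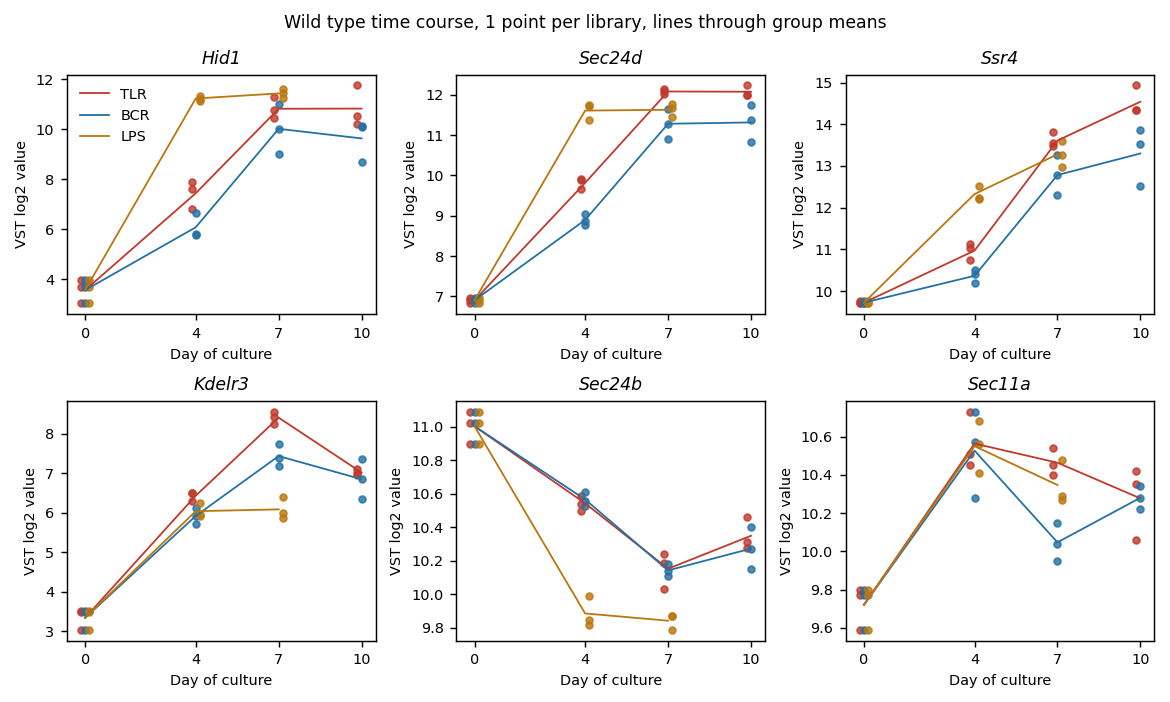
Log2 values of 6 genes in wild type cells by day of culture, with a point per library and lines through the means of TLR (red), BCR (blue) and LPS (amber) cultures; the day 0 libraries are shared. Hid1, Sec24d, Ssr4 and Kdelr3 lie above day 0 and Sec24b below it in all 3 cultures. The mean of Kdelr3 is lower at day 10 than at day 7 in the TLR and BCR cultures. The mean of Sec11a is lower at day 7 than at day 4 in all 3 cultures, a difference that passed only in the BCR culture.

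The BCR culture took the same direction with fewer calls. Its day 4 comparison uses the same day 0 libraries as the TLR course. By day 4, 36 genes rose, 2 fell (Sec24b and Sec16a) and 16 did not pass, against 26.1% higher and 24.5% lower of all genes, with a median of 0.74. From day 4 to day 7, 25 rose, 2 fell (Sec24b and Sec11a) and 27 did not pass (15.3% and 15.2%, median 0.57). Corrected for GC content and length, 41 rose and 2 fell in that step (median 0.64). Against day 0 the same correction gave 30 rises and 2 falls at day 4, with a median of 0.50 (all genes −0.15). At day 10 it gave 47 and 1, with a median of 1.00 (all genes −0.18). By day 10, 46 were above day 0, 1 below and 7 did not pass (29.5% and 22.8%, median 1.36), while 12 of 13 macrophage genes and 10 of 11 fibroblast genes were also higher; their part was not tested. At day 4 of the BCR culture all 11 fibroblast genes tested were also higher than at day 0, with summed reads of 3027 to 5375, and their part was not tested.

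Kdelr3 and Hid1 again led the BCR culture at day 4, with 2.58 ± 0.23 (adjusted p = 3.22e-08) and 2.51 ± 0.51 (adjusted p = 0.000503). Sec24d (1.99 ± 0.20, adjusted p = 1.51e-07), Lman1 (1.98 ± 0.20, adjusted p = 1.99e-07) and Kdelr2 (1.94 ± 0.16, adjusted p = 1.21e-08) rose too, and Sec24b fell by 0.44 ± 0.11 (adjusted p = 0.00193). Sec24d read 8.78, 8.86 and 9.05 at day 4, 10.91, 11.28 and 11.65 at day 7 and 11.38, 10.82 and 11.74 at day 10, with a late step of 2.38 ± 0.20 (adjusted p = 5.05e-08). Sec16a fell to 10.98, 11.11 and 10.90 at day 4, by 0.65 ± 0.20 (adjusted p = 0.0125). Sec11a fell from 10.57, 10.28 and 10.73 at day 4 to 10.15, 10.04 and 9.95 at day 7, by 0.48 ± 0.13 (adjusted p = 0.0105). Sec11c of the same enzyme rose by 1.54 ± 0.25 (adjusted p = 0.000101), so that the subunits moved apart. Ssr4 rose by 2.41 ± 0.28 (adjusted p = 2.93e-06) to 12.31, 12.78 and 13.26, and Sec24a by 1.65 ± 0.29 (adjusted p = 0.00022). Hid1 had the largest rise of that step, from 5.82, 6.67 and 5.76 to 9.02, 10.03 and 11.02 (3.94 ± 0.51, adjusted p = 1.15e-05), and Sec24b fell by a further 0.42 ± 0.11 (adjusted p = 0.00453). Over the whole BCR course Hid1 rose by 6.07, Sec24d by 4.41, Ssr4 by 3.57, Kdelr3 by 3.51 and Lman1 by 3.14, and Sec24b fell by 0.73.

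Between days 7 and 10 of BCR culture, 2 of the 54 genes rose and 0 fell (10.8% higher and 5.91% lower of all genes in limma, 4 members at an unadjusted p under 0.05, 2 called by voom). Mcfd2 read 9.74, 9.89 and 9.95 at day 7 and 11.57, 11.46 and 10.55 at day 10, a rise of 1.33 ± 0.21 (adjusted p = 0.000424). Both high libraries are those with the most macrophage transcripts: the summed normalised reads of 13 macrophage and myeloid genes were 410338, 376325 and 52360 in the day 10 BCR libraries, in the same order, and 5866 to 13270 at day 7. Their part in the level of Mcfd2 was not tested. Srp14 rose by 0.51 ± 0.11 (adjusted p = 0.00432) to 10.82, 10.60 and 10.68. With only the compared groups in the fit 0 members were called, and after the GC and length correction 2 rose and 4 fell. Median-centred libraries gave 1 rise and 2 falls, and quantile normalisation 2 and 3. Without replicate 2 of day 10 BCR the count of calls was 4, and without replicate 3 it was 8. Without the 2 libraries richest in macrophage transcripts, which leaves only replicate 3, the median of the 54 was 0.36 in place of 0.01.

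Set side by side, the TLR culture exceeded the BCR culture at day 7. There 25 of the 54 genes were higher and 0 lower in limma (3.77% and 2.5% of all genes, 39 at an unadjusted p under 0.05, 25 called by voom), with a median of 0.65 and 52 of 54 differences above 0. Prdm1 read 13.04 to 13.43 in TLR and 12.33 to 12.56 in BCR cells. Summed normalised reads of plasma cell markers were 1128344 to 1638742 in TLR and 429019 to 575522 in BCR cells. Those of macrophage genes were 3845 to 6221 and 5866 to 13270, and the part of either list was not tested. The 25 genes included 5 of 7 targeting genes and 3 of 5 each of the translocon and signal peptidase. Of the TRAP complex only Ssr3 was called, of COPI and Arf4 only Copa and Arf4, and of COPII only Sec23b, Sec24d, Sar1a and Sar1b. The other calls were Sec22b, the cargo receptors Tmed2, Tmed10, Lman1 and Mcfd2, and the KDEL receptors Kdelr2 and Kdelr3. Srp9, of the SRP, read 12.78, 12.24 and 12.28 in TLR and 11.62, 11.27 and 11.17 in BCR cells (1.08 ± 0.25, adjusted p = 0.0145). Spcs1 was at 11.98, 11.83 and 11.88 in BCR cells, below all 3 TLR libraries, by 1.00 ± 0.21 (adjusted p = 0.00816). Ssr3 differed by 1.10 ± 0.28 (adjusted p = 0.0259), Arf4 by 1.01 ± 0.23 (adjusted p = 0.015) and Kdelr3 by 0.97 ± 0.23 (adjusted p = 0.0152), with no overlap of groups in any of these genes.

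These TLR and BCR counts depend on how libraries are scaled. At day 7, libraries centred on their medians gave 7 calls and quantile normalisation 8, while the GC and length correction gave 32 and the table with both genotypes 38, all of them higher in TLR cells. Leaving out any single library of the 6 gave 3 (without TLR replicate 1), 14, 10, 13, 5 (without BCR replicate 2) and 15. At day 4, 1 gene was higher and 0 lower (4.3% and 3.27% of all genes, 11 at an unadjusted p under 0.05 and 1 by voom). That gene was Sec24d, by 0.92 ± 0.20 (adjusted p = 0.00622). In limma's test of whether the change from day 4 to day 7 differed between the cultures, no member passed (0 higher and 0 lower, against 0.862% and 0.826% of all genes, 16 at an unadjusted p under 0.05 and 0 by voom). All calls of that test under other settings were higher in the TLR culture: 9 in the table with both genotypes, 3 with the GC and length correction, 5 with that correction and the replicate block, and 2 with only the compared groups. Quantile normalisation put the median of the 54 at 0.40 in place of 0.65 for the day 7 comparison.

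At day 10, 6 genes were higher in TLR than in BCR cells and 0 lower (4.29% and 10.1% of all genes, 24 at an unadjusted p under 0.05 and 4 by voom). Ssr4 read 13.52, 12.51 and 13.87 in BCR cells, below all TLR libraries, by 1.24 ± 0.28 (adjusted p = 0.00934). Srprb, the membrane subunit of the SRP receptor, differed by 0.89 ± 0.25 (adjusted p = 0.0274), Sec24d by 0.76 ± 0.20 (adjusted p = 0.0185), Srpr by 0.70 ± 0.19 (adjusted p = 0.0205) and Sec61a1 by 0.68 ± 0.22 (adjusted p = 0.0442). Sec23b was the sixth call (0.44 ± 0.14, adjusted p = 0.0388), and of these 6 genes Srpr and Sec23b overlapped between the groups. In this comparison 8 macrophage genes were lower in TLR cells, and their part was not tested. Without both day 10 BCR libraries richest in macrophage transcripts the median was 0.09 in place of 0.43. That fit leaves only replicate 3 of the BCR group. Without replicate 3 of day 10 BCR, the library poorest in macrophage transcripts, 27 members were called, and without replicate 2 there were 0. Without replicate 1 of day 10 BCR there were 3, and without TLR replicate 1 or 3 there were 1 and 2. The count was 0 with only these groups in the fit, 10 with median-centred libraries, 3 with quantile normalisation and 34 after the GC and length correction.

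In the LPS culture of wild type cells most genes were already higher at day 4. By then 50 of 54 had risen, 1 (Sec24b) had fallen and 3 did not pass, against 27.3% higher and 30.8% lower of all genes, with a median of 1.38 (45 and 1 with median-centred libraries). This comparison crosses the 15 shallower and the 30 deeper libraries, and sex and age differ too, so culture, sex, age and depth cannot be told apart in it. With the GC and length correction 51 rose and 2 fell. Hid1 read 11.34, 11.23 and 11.14 (7.67 ± 0.40 above day 0, adjusted p = 1.3e-16) and Sec24d 11.74, 11.71 and 11.37 (4.70 ± 0.22, adjusted p = 1.09e-17). Sec61b rose by 3.75 ± 0.23 (adjusted p = 1.24e-14) and Ssr2 of the TRAP complex by 3.35 ± 0.28 (adjusted p = 1.48e-11). Cope rose by 2.93 ± 0.54 (adjusted p = 2.89e-05), and Sec24b fell by 1.12 ± 0.10 to 9.99, 9.85 and 9.82 (adjusted p = 7.75e-11).

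Between days 4 and 7 of LPS culture, in wild type cells and within the shallower libraries, 2 genes rose and 0 fell (4.75% and 3.65% of all genes, 4 members at an unadjusted p under 0.05, 2 by voom). Ssr4 went from 12.23, 12.22 and 12.53 to 12.97, 13.27 and 13.60 (0.95 ± 0.21, adjusted p = 0.00373). Tmed3, another p24 protein, went from 8.87, 8.91 and 9.15 to 9.74, 9.73 and 10.21 (0.92 ± 0.21, adjusted p = 0.0044). Ssr4 and Tmed3 were thus both called higher in the late step of each of the 3 wild type cultures.

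Cells of dEx1A mice were lower at day 4 of the LPS culture in 30 of the 54 genes and higher in 0, with 24 not passing, against 12.6% higher and 11.8% lower of all genes in limma (38 members at an unadjusted p under 0.05, 30 by voom). The median of the 54 was −0.67 and that of all genes 0.00. All mice of this comparison were 9-week-old females, but the wild type libraries are among the 15 shallower ones and the dEx1A libraries among the 30 deeper ones, so genotype and depth cannot be told apart. After the GC and length correction 49 were lower and 1 higher. With median-centred libraries the counts were 27 lower and 1 higher.

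Hid1 read 7.14, 7.41 and 8.42 in dEx1A cells against 11.34, 11.23 and 11.14 in wild type cells, the largest difference of the set (−3.58 ± 0.40, adjusted p = 5.18e-08). Sec24d read 9.82, 9.73 and 10.25 (−1.67 ± 0.22, adjusted p = 9.62e-07) and Kdelr3 4.31, 4.31 and 4.98 (−1.51 ± 0.24, adjusted p = 1.99e-05). Srprb was at −1.49 ± 0.22 (adjusted p = 6.03e-06). Cope was at −1.84 ± 0.54 (adjusted p = 0.0126) with 9.25, 10.27 and 10.61 in dEx1A and 11.86, 11.86 and 11.93 in wild type cells. No groups overlapped in these 5 genes. By role, 7 of 8 cargo receptors, 3 of 3 KDEL receptors, 7 of 13 COPII genes and 3 of 5 translocon genes were lower. Of COPI and Arf4, 2 of 7 genes were lower, and other roles are not listed here. The COPI genes called, Cope and Copg1, were 56.5% and 52.1% GC. Copa, Copb1, Copb2 and Arcn1, which did not pass, were 42.6% to 49.9%. Over the 54 genes Spearman's rho of difference and GC content was −0.61, and 49 were lower after the GC and length correction. The part of GC content in the counts by role was not tested. In the same libraries Prdm1 read 9.6 to 10.01 in dEx1A cells and 12.34 to 12.68 in wild type cells, and 5 of 6 plasma cell markers were lower.

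At day 7 of the LPS culture, where all 6 libraries are of the shallower kind, 0 of the 54 genes were higher and 0 lower in dEx1A cells (limma; 3.3% and 3.78% of all genes; 1 member at an unadjusted p under 0.05; 0 by voom). The median was 0.00, and differences ran from −0.51 to 0.47. Hid1 read 10.73, 10.97 and 11.10 in dEx1A and 11.26, 11.45 and 11.61 in wild type cells, and Sec24d 11.25, 11.53 and 11.47 against 11.44, 11.66 and 11.78. Prdm1 was still apart, at 11.1 to 11.32 against 12.4 to 12.77. Whether the genotype difference changed between the days was not tested. Between those days 36 genes rose and 0 fell in dEx1A cells (16.3% and 17.8% of all genes, median 0.71), in a comparison that crosses the deeper and shallower libraries. The largest rises were Hid1 (3.28 ± 0.40, adjusted p = 1.66e-07), Kdelr3 (2.02 ± 0.24, adjusted p = 1.12e-07) and Ssr4 (2.02 ± 0.21, adjusted p = 1.33e-08). Cope (1.93 ± 0.54, adjusted p = 0.00594) and Tmed3 (1.65 ± 0.21, adjusted p = 3.23e-07) followed. Median-centred libraries gave 26 rises and 1 fall.

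**Figure D4:**
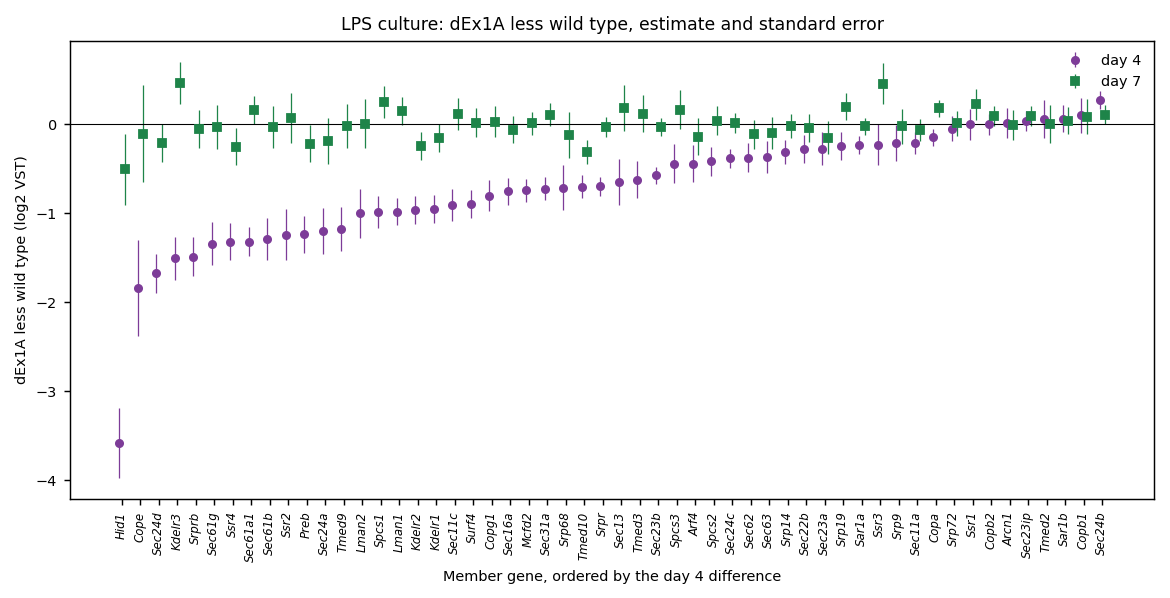
Difference of dEx1A from wild type cells in the LPS culture for each of the 54 genes, with its SE, at day 4 (purple circles) and day 7 (green squares), ordered by the day 4 value. At day 4 most points lie below 0, down to −3.58 for Hid1, and at day 7 they lie between −0.51 and 0.47.

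In the feeder cultures, genotype differs along with sex and age, which cannot be told apart from it. At day 4 of the TLR culture, with all libraries of the deeper kind, 2 genes were higher in dEx1A cells and 0 lower (4.08% and 3.14% of all genes in limma, 19 members at an unadjusted p under 0.05, 4 by voom). Ssr1 read 13.70, 13.34 and 13.94 against 12.87, 12.73 and 13.28 (0.70 ± 0.17, adjusted p = 0.0106), and Sec23ip, a partner of Sec23, differed by 0.38 ± 0.11 (adjusted p = 0.0308) with overlapping groups. The count was 14 without wild type replicate 3 or without dEx1A replicate 2, and 0 without wild type replicate 1 or 2 or dEx1A replicate 3. It was 1 without dEx1A replicate 1 and 10 with median-centred libraries. GC offsets were −1.73, −0.39 and −1.97 in the dEx1A and −0.29, 0.01 and −1.52 in the wild type libraries. Transcripts of Ssr1 and Sec23ip are 44.6% and 46.4% GC, and over the 54 genes Spearman's rho of difference and GC content was −0.79. After the GC and length correction 3 genes were higher and 0 lower, and the part of GC content was not tested.

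At day 4 of the BCR culture 0 genes were higher and 1 lower in dEx1A cells (1.19% and 0.669% of all genes in limma, 5 members at an unadjusted p under 0.05, 1 by voom). Sec24d read 7.92, 7.51 and 8.19 in dEx1A and 8.78, 8.86 and 9.05 in wild type cells (−1.02 ± 0.22, adjusted p = 0.00658), and without dEx1A replicate 2 there were 0 calls. Hid1, at 4.63, 5.57 and 4.94 against 5.82, 6.67 and 5.76, differed by −1.04 ± 0.40 without overlap and did not pass (adjusted p = 0.264).

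At day 7 the comparisons in the feeder cultures cross the deeper and shallower libraries as well. In the TLR culture 12 of the 54 genes were higher and 26 lower in dEx1A cells, with shares of all genes of 26.2% and 28.7%, and the median was −0.31. Prdm1 read 11.72 to 11.9 in dEx1A and 13.04 to 13.43 in wild type cells. Summed normalised reads of plasma cell markers were 360162 to 440431 in dEx1A and 1128344 to 1638742 in wild type cells. Those of the fibroblast list were 666 to 787 and 102 to 290, and the part of either list was not tested. Cope read 12.44, 12.25 and 13.21 against 9.37, 10.87 and 10.13 (2.51 ± 0.54, adjusted p = 0.000273). Lman2 (1.38 ± 0.27, adjusted p = 0.000105), Tmed9 (1.37 ± 0.25, adjusted p = 3.59e-05) and Sec13 of the outer COPII coat (1.34 ± 0.26, adjusted p = 9.43e-05) were higher. Sec61b (1.04 ± 0.23, adjusted p = 0.000437), Sec61g, Copg1, Srprb, Srp68, Preb, Surf4 and Sec61a1 (0.44 to 0.89) completed the 12. Sec24a was lower, at 11.50, 11.38 and 11.12 against 13.01, 12.58 and 12.75 (−1.45 ± 0.26, adjusted p = 3.49e-05).

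The direction of these day 7 differences went with GC content. Transcripts of the 12 higher genes were 44.6% to 56.5% GC (median 52.2%) and those of the 26 lower genes 40.2% to 51.9% (median 44.8%). Over the 54 genes of the same 6 libraries Spearman's rho of difference and GC content was 0.75, a description over genes that share libraries. It was −0.79 at day 4 of the TLR culture, −0.61 and −0.11 at days 4 and 7 of the LPS culture, and −0.33 and 0.37 for the BCR culture. After the GC and length correction 9 genes were higher and 18 lower at day 7 of the TLR culture, with a median of −0.09 over the 54 genes and −0.13 over all genes, and Srp68, Surf4 and Sec61a1 turned to −0.09, −0.18 and −0.10.

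In the BCR culture of day 7, 6 genes were higher and 32 lower in dEx1A cells (25.8% and 25% of all genes, median −0.45), and 4 and 38 after the correction. With only the compared groups in the fit 0 were higher and 20 lower, so that none of the 6 higher calls was made. Sec24a read 9.17, 10.03 and 10.65 against 12.02, 11.81 and 12.18 (−2.05 ± 0.26, adjusted p = 1.68e-07). Hid1 read 8.26, 7.14 and 8.54 against 9.02, 10.03 and 11.02 (−2.04 ± 0.40, adjusted p = 8.66e-05). Lman1 was at −1.46 ± 0.16 (adjusted p = 6.94e-09), Sec24d at −1.45 ± 0.22 (adjusted p = 2.54e-06) and Kdelr3 at −1.32 ± 0.24 (adjusted p = 3.79e-05), with no overlap of the groups in these 5 genes. The 6 higher genes were Tmed9 (0.90 ± 0.25, adjusted p = 0.00309), Sec13, Lman2, Sec61b, Sec11a (0.56 ± 0.13, adjusted p = 0.000454) and Srp14. Sec61b and Srp14 turned to −0.45 and −0.24 after the correction. Prdm1 read 10.02 to 10.8 against 12.33 to 12.56, and 5 of 6 plasma cell markers were lower. The summed normalised reads of those markers were 49483 to 90704 in dEx1A and 429019 to 575522 in wild type cells. Macrophage and myeloid reads summed to 25221, 7971 and 51046 against 5866 to 13270, and their part was not tested. Fibroblast transcripts summed to 5092 to 7129 against 624 to 785. Of the 11 fibroblast genes tested, 2 were higher and 1 lower, and their part was not tested.

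**Figure D5:**
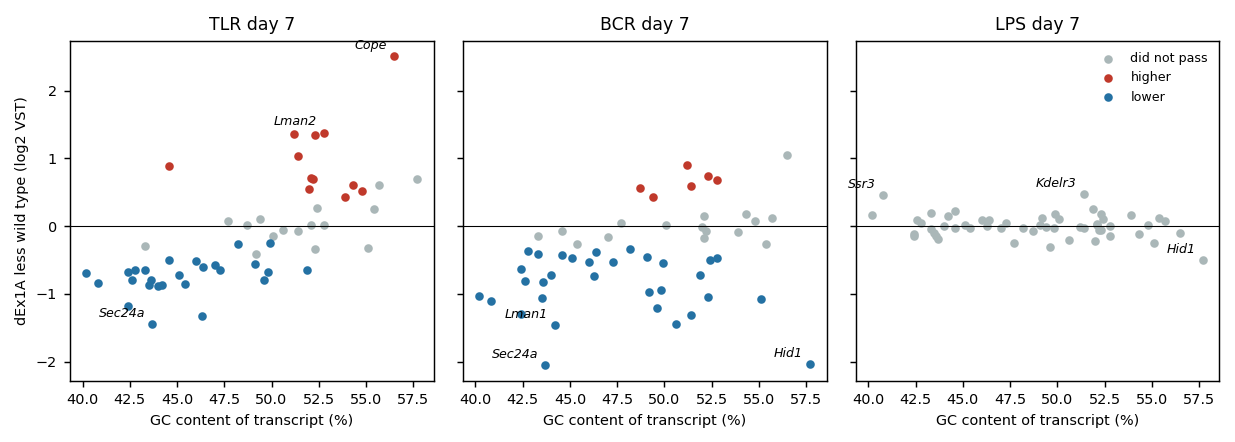
Difference of dEx1A from wild type cells at day 7 against the GC content of the transcript, a point per gene, for the TLR, BCR and LPS cultures; red and blue mark genes that passed as higher and lower. In the TLR panel 11 of the 12 higher genes lie at 51.2% GC or more, with Cope at 2.51, and Sec61g at 44.6%, and in the LPS panel none passed.

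From day 4 to day 7 of the dEx1A feeder cultures, again across deeper and shallower libraries, 33 genes rose and 6 fell in TLR cells (29.3% and 32.8% of all genes, median 0.70) and 23 rose and 7 fell in BCR cells (26.2% and 27.7%, median 0.22). After the correction the counts were 49 and 2, and 33 and 3. With median-centred libraries they were 27 and 10, and 20 and 14, and the medians were 0.40 in TLR and −0.08 in BCR cells, where those of all genes were −0.35 and −0.33. Hid1 rose by 4.57 ± 0.40 (adjusted p = 5.85e-11) in TLR and by 2.93 ± 0.40 (adjusted p = 6.87e-07) in BCR cells, and Cope by 4.25 ± 0.54 and 2.82 ± 0.54. Ssr4 in TLR cells (2.6 ± 0.21, adjusted p = 1.91e-11), Lman2 in both (2.32 and 1.64), Ssr2 in BCR cells (1.72) and Sec24d in both (2.08 ± 0.22 and 1.95 ± 0.22) rose. Srp72, Sec24b and Sec23ip fell in both cultures, by 0.79, 0.52 and 0.34 in TLR and by 0.72, 0.38 and 0.36 in BCR cells. Ssr1, Sec11a and Tmed2 also fell in TLR cells, and Sec23a, Copb1, Copb2 and Arcn1 in BCR cells. Of these, Ssr1 and Sec23ip in TLR cells, and Sec23a, Sec23ip, Copb1, Copb2 and Arcn1 in BCR cells, had the other sign after the correction.

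Further lists of the pathway hold genes outside the 54. In the TLR course of wild type cells, of 22 genes of targeting and membrane insertion, 10 were higher and 1 lower at day 10 than at day 0. Of 24 further genes of export from the ER 13 were higher and 2 lower, of 15 of return to the ER 7 and 2, and of 11 other cargo receptors 7 and 1, against 22.9% higher and 23.1% lower of all genes. In the step from day 4 to day 7 the counts were 6 and 0, 11 and 0, 6 and 1, and 2 and 2, against 17.7% and 18.6% of all genes, so that the other cargo receptors were near the share of all genes. That step held Tram2, a partner of the Sec61 channel (3.48 ± 0.26, adjusted p = 1.28e-08), Ergic1 of the intermediate compartment (2.04 ± 0.30, adjusted p = 3.49e-05) and Arfgap3, which releases the COPI coat (1.68 ± 0.26, adjusted p = 5.89e-05). Of the genes listed as other cargo receptors, Tmed8 fell by 1.79 ± 0.21 (adjusted p = 2.56e-06) and Cnih4 by 0.94 ± 0.20 (adjusted p = 0.00134). Whether Tmed8 acts as a cargo receptor was not tested. In dEx1A against wild type cells at day 4 of the LPS culture, the 4 lists, of 22, 24, 15 and 12 genes tested, had 4, 9, 6 and 2 genes lower and 2, 1, 1 and 1 higher, against 11.8% lower and 12.6% higher of all genes. These included Arfgap3 at −1.89 ± 0.20 (adjusted p = 2.02e-08) and Tram2 at −1.24 ± 0.19 (adjusted p = 9.44e-06).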

How the data were processed

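RNA was sequenced with a TruSeq Stranded Total RNA kit, per the labels' protocols, and the submitters' processing notes name STAR 2.6.0c, RSEM 1.3.0 and DESeq2 1.22.2, with no roles. The deposited values are log2 expression after the authors' variance-stabilising transformation of gene estimates, per the file names, in tables of 21 and 39 columns. Values near the floor of 3.04 understate differences. Reads were recovered by inverting the transformation; 97.6% to 100.0% of values under 20 reads were whole within 0.1 per library. Genes were kept if at least 1 above the floor in at least 3 libraries (19497 in the wild type table, 20331 in the other). limma 3.58.1 in R 4.3.3 fitted a mean for each group of a table, with a mean-dependent prior variance (14 and 26 residual degrees of freedom). A gene passed at a two-sided Benjamini-Hochberg adjusted p under 0.05 within each of 23 comparisons. Wild type TLR and BCR comparisons used the wild type table, and the rest the table with both genotypes. The procedure was tested on simulated data. Members, lists and tests were chosen with earlier results of these data known. The rule for named genes took the 5 largest passing differences per comparison and any passing against the majority; other members were named for their role, after their values were seen. Length and GC content are those of the longest protein-coding transcript in GENCODE M21. GC offsets compare, in each library, the median deviation of the 25% of 9872 genes richest in GC with that of the 25% poorest. Alternatives were no filter, other scalings, a GC and length correction, voom on recovered reads, a replicate block, fewer groups in the fit and leaving out libraries. Same-numbered libraries deviated together, every correlation over 0.1, in 4 of the comparisons (TLR against BCR at days 4 and 10, genotype in the BCR culture at day 4, and dEx1A LPS over time); the labels do not say what the number marks. One gene with a value below the floor was left out.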

Additional observations from a re-analysis of the deposited data

How the results depend on the processing

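Over all comparisons, the number of members called was within 1.5 times its value in 149 alternative fits, higher in 32 and lower in 13. With libraries left out these numbers were 119, 5 and 20. With only the compared groups in the fit the count was 1 for TLR day 7 to 10, 0 for BCR day 7 to 10, 2 for TLR against BCR at day 4, 0 at day 10, 2 for the interaction, 0 for genotype at day 4 in both TLR and BCR, and 20 for genotype in BCR at day 7. Without a filter it was 2 for TLR day 7 to 10. Median centring gave 1 for TLR day 7 to 10, 7 and 10 for TLR against BCR at days 7 and 10, and 10 for genotype in TLR at day 4. Quantile normalisation gave 5 for BCR day 7 to 10, 3, 8 and 3 for TLR against BCR at days 4, 7 and 10, and 1 and 2 for genotype in TLR and BCR at day 4. Voom gave 4 for genotype in TLR at day 4. The GC and length correction gave 43 for BCR day 4 to 7, 6 for BCR day 7 to 10, 4 and 34 for TLR against BCR at days 4 and 10, 3 for the interaction, 5 for LPS day 4 to 7, 50 and 2 for genotype in LPS at days 4 and 7, and 3 for genotype in BCR at day 4. Comparisons of wild type groups fitted in the other table gave 6 and 38 for TLR against BCR at days 4 and 7 and 9 for the interaction.

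With the replicate block the count moved by over 1.5 times for genotype in TLR at day 4 (4 called). With the block and the GC correction together it was 44 and 6 for the BCR steps after day 4, 6 and 38 for TLR against BCR at days 4 and 10, 5 for the interaction, 7 for LPS day 4 to 7, 50 and 3 for genotype in LPS, and 4 and 5 for genotype in TLR and BCR at day 4. Where same-numbered libraries deviated together, the block alone gave 1 and 8 for TLR against BCR at days 4 and 10, 1 for genotype in BCR at day 4 and 37 for dEx1A LPS over time.

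Leaving out 1 library at a time, and once the 2 day 10 BCR libraries richest in macrophage transcripts, gave 2 to 8 calls for BCR day 7 to 10, 0 to 27 for TLR against BCR at day 10, 3 to 15 at day 7, 1 to 4 for TLR day 7 to 10, 0 to 1 for genotype in BCR at day 4 and 0 to 14 for genotype in TLR at day 4. With the GC correction, alone or with the block, signs turned for Srp68 (−0.09), Surf4 (−0.18) and Sec61a1 (−0.10) for genotype in TLR at day 7, and for Sec61b (−0.45) and Srp14 (−0.24) in BCR. They also turned over time for Ssr1 (0.40) and Sec23ip (0.30) in dEx1A TLR cells, and in dEx1A BCR cells for Sec23a (0.01), Copb1 (0.06), Arcn1 (0.01), Copb2 (0.02) and Sec23ip (0.11). The causes were not tested. Genes with few reads, such as Hid1 and Kdelr3 at day 0, are compressed toward the floor.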
